A study of Mus musculus with 12 samples.

Results

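Catecholamines, glucagon and insulin set the balance between glucose output and fuel storage in the liver, and the transcripts of 7 genes through which a hepatocyte senses them were described here across the livers of 24 h-fasted mice. They are the adrenergic receptor genes Adra1a, Adra1b and Adra2a, the glucagon receptor gene Gcgr, the insulin receptor gene Insr, and Irs1 and Irs2, which encode the insulin receptor substrates. These 7 genes, of 56748 in the deposited table, were chosen by name with earlier results of these counts known, so their values are given as a description without p-values. All 7 were counted and passed the filter on low counts, Adra2a through the knockout livers alone.

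RNA-seq was performed on 12 livers, 4 of each of 3 genotypes, all from mice fasted for 24 h. The WT livers carry, by their label, floxed alleles of Cpt1a, Cpt1b and Cpt2, whereas the study's text names mice floxed for Atf3 and Cpt2 as the controls of the double knockout. The single knockout (SKO) livers are labelled as lacking CPT2, the inner mitochondrial membrane enzyme that long-chain fatty acids need for oxidation, and the double knockout (DKO) livers as lacking CPT2 and the stress-induced transcription factor ATF3. Deletion relied on Albumin-Cre, which is active in cells of the hepatocyte lineage, so that endothelial, stellate and immune cells of the liver keep intact alleles. The background is C57BL6, and ages and littermates are not given in the labels. Libraries held 14710304 to 20030055 counted reads, so that a gene without reads may have up to 3 reads, or 0.145 to 0.195 CPM (reads of a gene relative to the scaled library size), a limit for counting error only. Cpt2 had 199 to 250 CPM in WT livers, 109 to 159 in SKO livers and 99.9 to 126 in DKO livers. Atf3 had 17 to 39 reads in WT, 259 to 1056 in SKO and 164, 177, 265 and 5 in DKO replicates 1 to 4, and reads on the deleted part of either gene cannot be told from reads on the rest. The animals of the RNA-seq are described as male, but SKO replicate 3 and DKO replicate 4 had 18063 and 20855 reads on Xist and 2 and 0 on 4 Y-linked genes, where the other 10 livers had 2741 to 4294 Y-linked reads. Several results that rest on DKO replicate 4 or SKO replicate 3 are therefore also given without that liver, and the others include it. In whole liver, fewer cells of a type and less RNA per cell cannot be told apart, and p-values measure the spread between these livers.

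As background, the alpha-1 adrenergic receptors couple to Gq and raise cytosolic calcium, which activates glycogen phosphorylase kinase, and Adra1b is the main subtype of rodent hepatocytes. The alpha-2A receptor couples to Gi and lowers cAMP, while the glucagon receptor couples to Gs, raises cAMP and drives gluconeogenesis during a fast. Insulin acts through its receptor tyrosine kinase and the substrates IRS1 and IRS2 to activate AKT, which holds FOXO1 out of the nucleus. Irs2 is a known target of FOXO1 and of the cAMP response, and is typically induced by fasting.

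The promoters of both adrenergic genes with the widest spread between genotypes are shown as the 250 bases before each RefSeq start site (GRCm38.p6), in lower case with matches to the searched motifs in capitals, 5′ to 3′ on the gene's strand. RefSeq promoters were at hand for 5 of the 7 genes, not for Adra1a and Insr, and Adra1b has 2 start sites.
Adra1b, first start site, chr11:43901238-43901487, minus strand: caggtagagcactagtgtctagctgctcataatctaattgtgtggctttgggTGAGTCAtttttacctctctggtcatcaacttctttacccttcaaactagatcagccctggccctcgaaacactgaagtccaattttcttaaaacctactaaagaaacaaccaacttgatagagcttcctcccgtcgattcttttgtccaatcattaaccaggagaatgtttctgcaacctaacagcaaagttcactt
Adra1b, second start site, chr11:43836490-43836739, minus strand: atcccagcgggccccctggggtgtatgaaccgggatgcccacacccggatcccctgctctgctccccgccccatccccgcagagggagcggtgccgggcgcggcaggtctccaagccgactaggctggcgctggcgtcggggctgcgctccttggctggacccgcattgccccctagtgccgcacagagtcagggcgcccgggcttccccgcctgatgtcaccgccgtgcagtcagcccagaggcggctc
Adra2a, chr19:54045009-54045258, plus strand: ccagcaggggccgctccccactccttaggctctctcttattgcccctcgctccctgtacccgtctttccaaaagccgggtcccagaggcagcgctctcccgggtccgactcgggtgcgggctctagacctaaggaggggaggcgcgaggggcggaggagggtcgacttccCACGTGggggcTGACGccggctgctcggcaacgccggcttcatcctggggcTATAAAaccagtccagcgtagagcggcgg
The motifs searched on both strands were the cAMP response element TGACGTCA and its shorter part TGACG, the forkhead motif GTAAACA, the AP-1 motif TGANTCA, the E-box CACGTG and the TATA box TATAAA, and the E-box was added after the sequences had been seen. Before the first Adra1b start, an AP-1 match (TGAGTCA) lay 198 to 192 bases upstream, and the window of the second start held no match. Before the Adra2a start, the E-box lay at 80 to 75, TGACG at 69 to 65 and TATAAA at 29 to 24 bases. E-boxes also lay 115 to 110 bases before the start of Irs1, overlapped by a reverse-strand TGACG at 118 to 114, and 44 to 39 bases before that of Irs2, and the Gcgr window held no match. Of 32851 promoter windows of this length, 6.75% held TGANTCA, 6.02% CACGTG, 17.8% TGACG, 12.4% TATAAA, 3.17% GTAAACA and 1.55% TGACGTCA, so each match is a description of these letters and no more.

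Adra1b (ENSMUSG00000050541) was the adrenergic transcript with the highest level in WT livers. On chromosome 11 the deposited table places it from 43665433 to 43792037 on the minus strand. The labels name the builds GRCm38 and mm10, but the table's coordinates differ from those of GRCm38 for all 7 genes and are given as deposited. Adra1b had 33.4, 37.8, 50.7 and 44.0 CPM in WT replicates 1 to 4. In SKO replicates 1 to 4 it had 8.05, 2.15, 3.12 and 3.26 CPM, so that every SKO liver lay below every WT liver. DKO replicates 1 to 3 had 4.44, 4.84 and 4.68 CPM, among the SKO values, whereas DKO replicate 4 had 49.7 CPM, within the WT range. The means were 41.5 ± 7.56 CPM (SD, n = 4) in WT livers, 4.14 ± 2.65 in SKO livers and 15.9 ± 22.5 in DKO livers, or 4.65 ± 0.203 in DKO livers without replicate 4. On the log2 scale the difference from WT was −3.34 (standard error 0.341) in SKO livers, that is a 10.1-fold higher level in WT, and −1.36 (standard error 0.755) in DKO livers. Without DKO replicate 4 the DKO difference was −3.15 (standard error 0.164).

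Adra2a (ENSMUSG00000033717, chromosome 19 from 54032582 to 54037413 in the table, plus strand) went from near absence to a readily counted transcript. Over the 4 WT livers it had 2 reads, all in replicate 2. SKO replicates 1 to 4 had 22.5, 10.5, 25.6 and 5.22 CPM, and DKO replicates 1 to 4 had 10.0, 47.1, 5.59 and 4.90 CPM. All 8 knockout livers, DKO replicate 4 included, lay above every WT liver, and the levels within each knockout genotype spread widely, with 93 to 492 reads in SKO and 92 to 769 in DKO livers. The mean was 15.9 ± 9.66 CPM (SD, n = 4) in SKO livers and 16.9 ± 20.3 in DKO livers, against 0.0316 ± 0.0633 in WT. Because so few WT reads stand below the ratio, it was computed from reads and scaled library sizes, as 541 for SKO over WT with a 95% interval from 149 to 4474 and 536 for DKO over WT with an interval from 148 to 4428. Without DKO replicate 4 the DKO ratio was 657, with an interval from 182 to 5434. These intervals cover counting error only and not the spread between livers.

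Adra1a (ENSMUSG00000045875, chromosome 14), the other alpha-1 gene, was low in every group. It had 8.53, 7.59, 6.31 and 8.96 CPM in WT livers, 12.1, 8.44, 19.6 and 10.8 in SKO livers and 10.3, 11.5, 8.13 and 10.8 in DKO livers. The ranges of the 3 genotypes overlapped, and the highest value came from SKO replicate 3, a liver with Xist reads. The log2 difference from WT was 0.69 (standard error 0.246) in SKO livers, or 0.41 without SKO replicate 3, and 0.38 (standard error 0.172) in DKO livers.

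**Figure D1:**
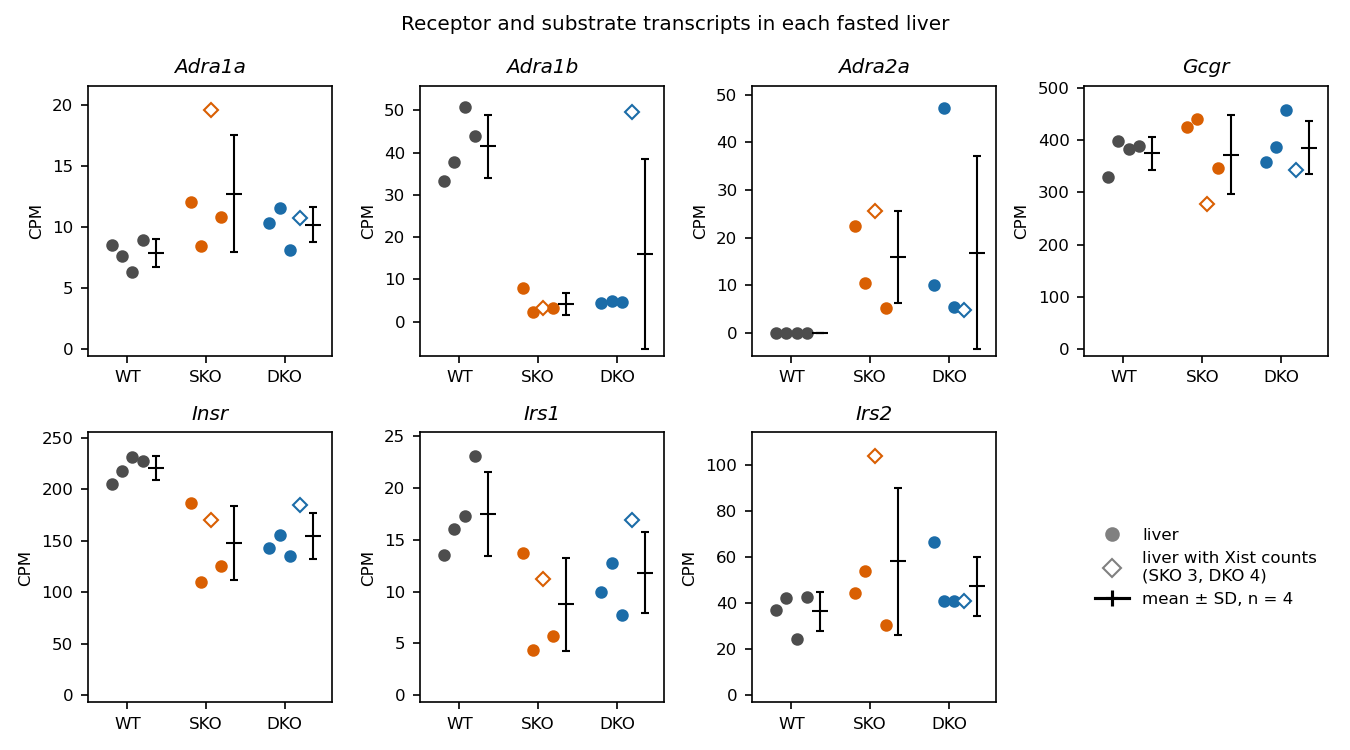
Level of each of the 7 transcripts (CPM, linear axis) in the 4 livers of each genotype, with the mean ± SD in black and livers with Xist reads (SKO replicate 3, DKO replicate 4) as open diamonds. Adra1b of DKO replicate 4 (49.7 CPM) lies with the WT livers, Adra2a is near 0 in WT livers alone, and Gcgr spans similar ranges in the 3 genotypes.

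Levels of different receptors were compared on the deposited FPKM scale, which scales by gene length. Summed over 8 adrenergic receptor genes the level was 17.99 ± 2.74 FPKM (SD, n = 4) in WT livers, 7.30 ± 3.08 in SKO livers and 11.3 ± 7.60 in DKO livers, the last falling to 8.09 ± 4.83 without replicate 4. Adra1b made up 71.1% of that sum in WT livers (range 68 to 76%) and 17.6% in SKO livers (range 9.6 to 24.5%). Its share was 10.7 to 29.5% in DKO replicates 1 to 3 and 73.5% in DKO replicate 4. Adra2a took 0.0422% of the sum in WT livers, 43.5% in SKO livers (range 25.6 to 55.1%) and 34.9% in DKO livers (range 5.07 to 72.7%, lowest in replicate 4), or 44.8% in DKO livers without replicate 4. Adra1a made up 5.35% in WT livers, 21.8% in SKO livers and 14.3% in DKO livers, or 17% in DKO livers without replicate 4. Thus the Gq-coupled Adra1b led in all WT livers, while the Gi-coupled Adra2a exceeded it in FPKM in all 4 SKO livers, by 1.12 to 5.74 times, and in DKO replicates 1 and 2, by 1.58 and 6.81 times, but not in DKO replicates 3 (0.837) and 4 (0.0689). The other receptor genes in the sum are not among the 7. Adrb3 made up 17.5% of the sum in WT livers and 3.75% in SKO livers, and the FPKM of Adrb1 and Adra2b overlapped between WT and SKO livers. As shares of the smaller SKO sum they did not overlap, with Adrb1 at 1.54 to 3.01% in WT and 3.36 to 5.89% in SKO livers and Adra2b at 1.64 to 5% and 5.26 to 11.6%. Adra1d had 0 to 2 and Adra2c 0 to 1 reads in a liver.

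**Figure D2:**
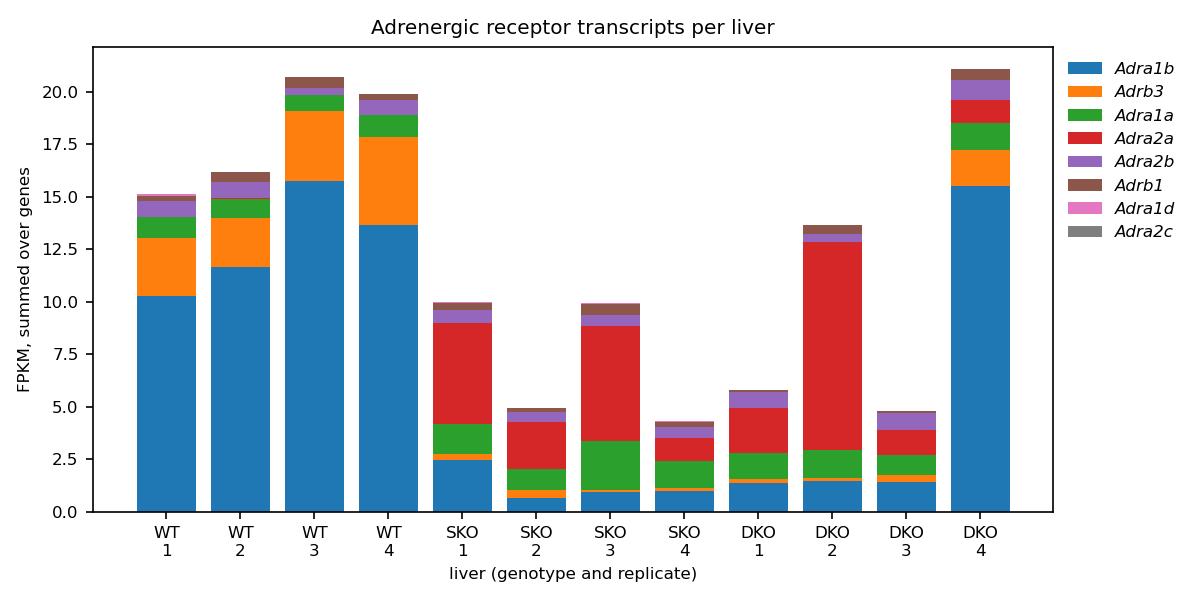
FPKM of 8 adrenergic receptor genes stacked for each liver (vertical axis in FPKM, livers grouped by genotype). Adra1b (blue) fills most of the bar in WT livers and in DKO replicate 4, and Adra2a (red) appears in the 8 knockout livers, with its largest bar in DKO replicate 2.

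Gcgr (ENSMUSG00000025127, chromosome 11 from 120421525 to 120429812 in the table) was the most abundant of the 7 transcripts and was close to level across genotypes. It had 329, 398, 383 and 390 CPM in WT livers, 426, 441, 277 and 346 in SKO livers and 358, 386, 458 and 342 in DKO livers. All ranges overlapped, and the lowest and the highest values both came from knockout livers. Against WT the log2 difference was −0.011 (standard error 0.159) in SKO and 0.056 (standard error 0.138) in DKO livers, and between DKO and SKO livers it was 0.073 (standard error 0.191). Without SKO replicate 3, the lowest SKO liver, these differences were 0.11 (standard error 0.141) between SKO and WT and −0.044 (standard error 0.192) between DKO and SKO livers. A difference of the size of these standard errors could not have been seen with 4 livers a group.

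Insr (ENSMUSG00000005534, chromosome 8 from 3172061 to 3329617 in the table), which encodes the insulin receptor, was lower in both knockouts. It had 205, 218, 231 and 228 CPM in WT livers, 187, 110, 170 and 125 in SKO livers and 143, 156, 135 and 185 in DKO livers, and no knockout liver reached the WT range. The means were 220.4 ± 11.7 CPM (SD, n = 4) in WT livers, 148 ± 36.2 in SKO livers and 155 ± 22.1 in DKO livers. The log2 difference from WT was −0.58 (standard error 0.166) in SKO and −0.50 (standard error 0.133) in DKO livers, so WT livers had 1.49 and 1.41 times the knockout levels. Without DKO replicate 4, the highest DKO liver, the DKO difference was −0.60 (standard error 0.102), and it was −0.51 (standard error 0.142) with the replicate number as a block.

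The means of the receptor's substrates did not share a direction. Irs1 (ENSMUSG00000055980, chromosome 1) had 13.6, 16.0, 17.3 and 23.0 CPM in WT livers, 13.8, 4.35, 11.2 and 5.67 in SKO livers and 9.98, 12.7, 7.73 and 16.9 in DKO livers. WT and SKO livers overlapped only through SKO replicate 1, the highest SKO value, and the lowest WT value. The log2 difference was −1.005 (standard error 0.324) in SKO and −0.55 (standard error 0.249) in DKO livers, or −0.78 (standard error 0.208) in DKO livers without replicate 4. Irs2 (ENSMUSG00000038894, chromosome 8) had 37.1, 42.0, 24.3 and 42.7 CPM in WT livers, 44.5, 53.8, 104 and 30.4 in SKO livers and 66.4, 41.1, 40.9 and 40.8 in DKO livers. All groups overlapped, and the SKO mean of 58.1 ± 31.9 CPM (SD, n = 4) fell to 42.9 ± 11.8 without SKO replicate 3, against 36.5 ± 8.50 in WT livers. The log2 difference between SKO and WT livers was 0.67 (standard error 0.319), and 0.23 (standard error 0.224) without SKO replicate 3. Between DKO and WT livers it was 0.39 (standard error 0.221), and 0.18 (standard error 0.189) without DKO replicate 1, the highest DKO liver.

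Ratios taken within each liver combine such genes in one value. The FPKM of Irs2 over that of Irs1 was 3.96, 3.80, 2.03 and 2.68 in WT livers and 4.67, 17.9, 13.4 and 7.75 in SKO livers, so that the groups did not overlap. In DKO replicates 1 to 4 the ratio was 9.62, 4.66, 7.66 and 3.49, with replicate 4 inside the WT range. The FPKM of Gcgr over that of Insr was 8.92 ± 0.501 (SD, n = 4) in WT livers, 14.0 ± 5.25 in SKO livers and 13.4 ± 3.36 in DKO livers. SKO replicate 3, at 8.54, was the single SKO liver within the WT range of 8.42 to 9.59, and DKO replicate 4, at 9.68, lay just above it.

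In order of FPKM, WT livers had Gcgr at 149.7 ± 12.7 (SD, n = 4), Insr at 16.8 ± 0.942, Adra1b at 12.8 ± 2.38, Irs2 at 6.04 ± 1.40, Irs1 at 2.00 ± 0.464, Adra1a at 0.940 ± 0.140 and Adra2a at 0.00684 ± 0.0137. Among neighbours in this order, Insr and Adra1b overlapped between livers. In SKO livers Gcgr (147 ± 30.3) stayed first, and each neighbouring pair after it overlapped, in the order Insr (11.1), Irs2 (9.49), Adra2a (3.41), Adra1a (1.504), Adra1b (1.26) and Irs1 (0.987). In DKO livers the order after Gcgr (152 ± 19.0) was Insr (11.7), Irs2 (7.74), Adra1b (4.93), Adra2a (3.58), Irs1 (1.34) and Adra1a (1.21), again with overlap at each step. Without DKO replicate 4 Adra1b was at 1.41 FPKM and behind Adra2a (4.42), and Adra1a (1.18) was ahead of Irs1 (1.14). Adra1b was thus behind Gcgr and Insr in WT livers, and in SKO livers it was ahead of Irs1 alone, or also of Adra1a (1.37 against 1.23 FPKM) without SKO replicate 3.

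Between DKO and SKO livers the log2 difference was 2.01 (standard error 0.846) for Adra1b and fell to 0.18 (standard error 0.387) without DKO replicate 4. For Adra2a it was 0.070 (standard error 0.715), and it turned to −1.19 (standard error 0.516) without DKO replicate 2, the liver with the highest Adra2a level. For Insr it was 0.087 (standard error 0.205), or −0.030 without DKO replicate 4, and for Irs1 0.46 (standard error 0.378), or 0.22 without DKO replicate 4. For Irs2 it was −0.28 (standard error 0.343), and it turned to 0.17 (standard error 0.252) without SKO replicate 3. For Adra1a it was −0.30 (standard error 0.256), and −0.011 (standard error 0.206) without SKO replicate 3. For each of the 7 genes the SKO and DKO ranges overlapped. The share of all genes whose ranges overlapped was not computed, so nothing is read from this.

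**Figure D3:**
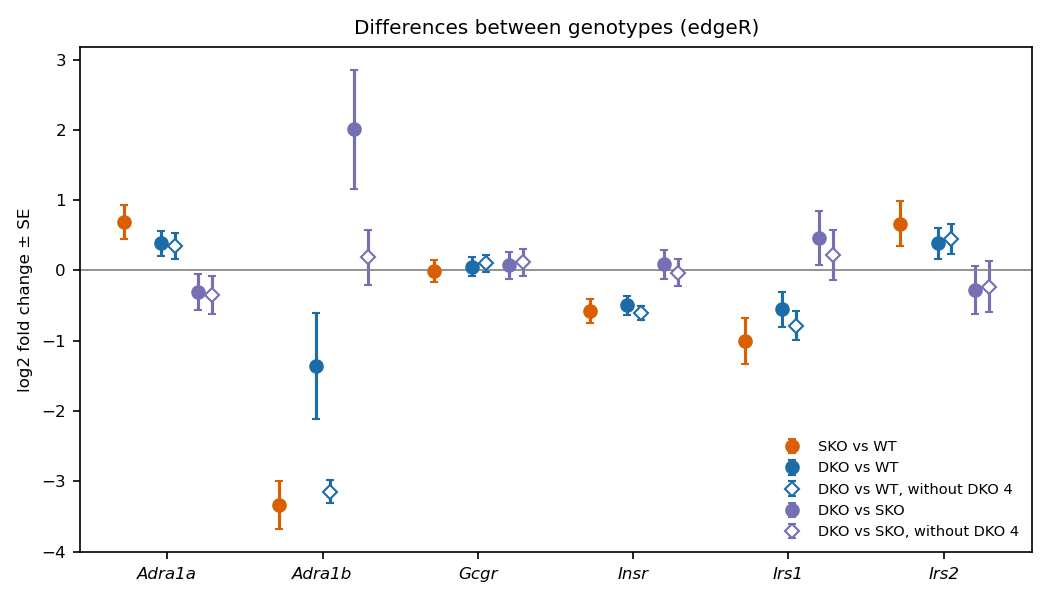
Log2 fold change ± standard error of edgeR for 6 of the 7 genes in SKO against WT, DKO against WT and DKO against SKO livers, with open diamonds for fits without DKO replicate 4 (Adra2a is left out because its fold rests on 2 WT reads). Adra1b lies at −3.34 in SKO against WT, and its DKO difference from WT moves from −1.36 to −3.15 without DKO replicate 4.

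For reference, counts past an adjusted p-value of 0.05 (quasi-likelihood test of edgeR, adjusted by Benjamini-Hochberg over all genes) are set beside those of all genes, and nothing is read from them. Between SKO and WT livers 4 of the 7 genes passed, Adra2a higher and Adra1b, Insr and Irs1 lower, where 32.1% of the 14261 genes tested did, 16.7% higher and 15.4% lower. Between DKO and WT livers 2 passed, Adra2a higher and Insr lower, against 10.5% of 14448 genes, 6.06% higher and 4.39% lower. The Insr call of this comparison did not hold with the replicate block, without a filter, in 1 fit over 12 livers or without any single liver other than DKO replicate 4, and the Adra2a call did not hold without WT replicate 2. Of the SKO calls, Insr did not pass without WT replicate 4 or SKO replicate 4, Irs1 did not pass without WT replicate 2, 3 or 4 or SKO replicate 2 or 4, and Adra1b passed under each of the 16 alternatives. The Adra2a calls are against a group with 2 reads in all, and a gene that passed the filter through the knockout livers had to differ. Between SKO and WT livers Adra1a also passed, as higher, with DESeq2, without a filter, in 1 fit over 12 livers and without SKO replicate 2, and Irs2, also as higher, without a filter and without SKO replicate 4. Without DKO replicate 4 there were 4 DKO calls, Adra2a higher and Adra1b, Insr and Irs1 lower, against 35.9% of genes, 18.4% higher and 17.5% lower. Between DKO and SKO livers 0 of 7 passed by edgeR and 0 by DESeq2, with 1 (Adra1b) at an unadjusted p-value under 0.05 in edgeR, where 0.0209% of 14363 genes passed, and 0.103% without DKO replicate 4. The same WT livers serve both comparisons. The median log2 difference of the 7 genes was −0.011, 0.056 and 0.073 in the 3 comparisons, and that of all genes was 0.031, 0.030 and 0.0086.

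Cell type markers also differed between genotypes. The summed CPM of 9 counted hepatocyte markers was 80897 to 99318 in WT livers, 46838 to 75731 in SKO livers and 48502 to 57667 in DKO livers apart from replicate 4, which had 101545. Stellate cell and fibroblast markers (12 genes) summed to 303 to 359 CPM in WT livers, 412 to 579 in SKO livers and 379.9 to 476 in DKO livers, and cholangiocyte markers (8 genes) to 42.5 to 53.7, 21.5 to 27.4 and 22.6 to 45.0 CPM. The cholangiocyte sum of 45.0 CPM was that of DKO replicate 4, and DKO replicates 1 to 3 had 22.6 to 32.9 CPM. SKO replicate 3 had the highest SKO sum of the hepatocyte, stellate and cholangiocyte markers. Of these markers, 3 of 12 stellate markers (Dcn, Pdgfra and Ecm1) were higher, and 5 of 9 hepatocyte markers (Alb, Ttr, Serpina1a, Serpina1c and Cyp2e1) and 2 of 5 tested cholangiocyte markers (Sox9 and Spp1) were lower, in SKO than in WT livers by edgeR's adjusted p-value. Of all genes tested, 16.7% were higher and 15.4% lower in this comparison, and nothing is read from these small counts. In DKO livers Serpina1a, Serpina1c and Sox9 were lower than in WT, where 4.39% of all genes tested were lower. Endothelial markers spanned 289 to 628, 389 to 483 and 320 to 463 CPM in WT, SKO and DKO livers, and macrophage markers 247 to 491, 235 to 567 and 148 to 508 CPM, with Cd68 higher in SKO and Marco lower in DKO than in WT livers. The highest SKO value of both sets came from SKO replicate 3. The macrophage sum of 508 CPM was that of DKO replicate 4, and DKO replicates 1 to 3 had 148 to 229 CPM, below every WT liver. Erythroid markers (6 genes) summed to 113 to 249, 156 to 533 and 128 to 714 CPM, with Hba-a1 and Hbb-bs higher in SKO and Alas2 lower in both knockouts than in WT. Lymphocyte markers summed to at most 8.95 and neutrophil markers to at most 2.03 CPM in any liver. Adipocyte markers summed to at most 0.723 CPM in any liver with Lep at 0 in every liver, and exocrine pancreas markers to at most 12.7 CPM with Prss2 at 0. None of the hepatocyte, cholangiocyte and stellate markers was at 0 in any whole group. The part of these cell markers in the values of Adra1b, Adra2a and Insr was not tested.

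The downstream pathways were described with 6 lists of 228 genes, 227 of them in the table, of which 206 were tested between SKO and WT and 207 in the other comparisons. Between SKO and WT livers 31 genes were higher and 38 lower, 33.5% of those tested. This is close to the 32.1% of all genes tested. In the adrenergic and calcium arm 2 of 34 tested genes were higher and 4 lower in SKO than in WT livers, 17.6% of the list, and 1 was higher and 1 lower in DKO livers, 5.88% against 10.5% of all genes. With DKO replicate 4 left out there were 4 higher and 4 lower, 23.5% against 35.9% of all genes. Adrb3, the beta-3 adrenergic receptor gene, fell by 3.75 on the log2 scale, from 10.2 ± 2.58 CPM (SD, n = 4) to 0.758 ± 0.415 (adjusted p = 2.4e-05, edgeR's quasi-likelihood test). Gna14, a Gq-family alpha subunit, fell from 2.78 to 0.642 CPM (log2 fold change −2.09, adjusted p = 0.00103), and Phka2, a regulatory subunit of liver phosphorylase kinase, from 41.3 to 24.5 CPM (−0.76, adjusted p = 0.00275). The calcium-dependent kinase gene Camk2d rose from 9.34 to 19.6 CPM (log2 fold change 1.06, adjusted p = 3.7e-04).

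In the glucagon and cAMP arm 10 of 50 tested genes had higher levels in SKO livers than in WT and 6 had lower ones, 32% of the list against 32.1% of all genes. Gnai1, which encodes an alpha subunit of Gi, the class of G protein that the alpha-2A receptor uses, rose from 1.49 ± 0.212 CPM (SD, n = 4) to 11.2 ± 6.46, up by 2.90 on the log2 scale with a standard error of 0.466 (adjusted p = 6.8e-04). The cAMP phosphodiesterase gene Pde4d rose from 6.02 to 17.9 CPM (log2 fold change 1.56, adjusted p = 2.4e-04). Adcy1, an adenylyl cyclase gene, rose from 0.908 to 2.45 CPM (adjusted p = 0.00134). Prkaca, the catalytic subunit of protein kinase A, fell from 63.0 to 40.2 CPM (log2 fold change −0.65, adjusted p = 0.00107). In DKO livers 4 genes of 51 were higher and 3 lower against WT, 13.7% against 10.5% of all genes, or 8 higher and 10 lower without DKO replicate 4 (35.3% against 35.9%). DKO livers had Pde4d at 17.8 CPM and Adcy9, another cyclase gene, at 20.5 CPM against 44.4 in WT (log2 fold change −1.10, adjusted p = 0.0121). Adcy9 also passed as lower in SKO livers, with a mean of 21.8 CPM. In DKO livers Crebbp, a coactivator of CREB, rose from 30.0 to 40.6 CPM (adjusted p = 0.0314) and Prkar2a, a regulatory subunit of protein kinase A, fell from 121 to 80.7 CPM (adjusted p = 0.0332).

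In the insulin signalling chain 7 of 33 tested genes were higher and 2 lower in SKO than in WT livers, 27.3% of the list against 32.1% of all genes. Pik3r1, the main regulatory subunit of phosphoinositide 3-kinase, fell from 91.5 ± 11.8 CPM (SD, n = 4) in WT to 42.6 ± 9.22 in SKO livers (log2 fold change −1.11, adjusted p = 4.4e-04) and to 52.0 ± 12.4 in DKO livers (−0.80, adjusted p = 0.0260), where it was the 1 gene of the chain past the threshold. This 1 gene is 3.03% of the list, against 10.5% of all genes. In DKO livers without replicate 4 there were 6 higher and 3 lower, 27.3% against 35.9% of all genes. Mtor, the kinase of the growth pathway, rose from 75.1 to 177 CPM (log2 fold change 1.23, adjusted p = 4.6e-05). Eif4ebp1, a translation repressor that it phosphorylates, rose from 45.2 to 94.3 CPM (adjusted p = 0.00113), and Rheb, the GTPase that activates it, from 48.9 to 83.8 CPM (adjusted p = 0.00131). These last 3 had 123 to 197, 77.6 to 90.6 and 68.8 to 76.9 CPM in DKO replicates 1 to 3 but 66.7, 40.2 and 48.3 in DKO replicate 4.

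In the list named brakes on insulin signalling, 7 of 35 tested genes were higher and 3 lower in SKO than in WT livers, 28.6% against 32.1% of all genes. Not every gene of this list restrains the signalling. In DKO livers 3 were higher and 0 lower, 8.57% against 10.5% of all genes (3 lower at an unadjusted p-value under 0.05 in edgeR, and 7 called in either direction by DESeq2). Leaving out DKO replicate 4 gave 9 higher and 5 lower, 40% against 35.9% of all genes. Ide, the insulin-degrading enzyme gene, rose from 103.7 ± 6.05 CPM (SD, n = 4) in WT to 249.8 ± 33.0 in SKO (log2 fold change 1.26, adjusted p = 3.0e-05) and 200.3 ± 52.9 in DKO livers (0.96, adjusted p = 0.0153). Ceacam1, which promotes insulin clearance by the liver, fell from 196 to 97.1 CPM in SKO livers (log2 fold change −1.01, adjusted p = 1.9e-04). Ahsg, the secreted inhibitor fetuin-A, fell from 6732 to 2979 CPM (−1.18, adjusted p = 2.2e-04), and Ppp2ca, a phosphatase subunit, rose from 131 to 214 CPM (0.71, adjusted p = 0.00199). Against WT, DKO livers had higher Ptpn2, a tyrosine phosphatase gene (9.87 to 15.0 CPM, adjusted p = 0.0344), and Cblb, a ubiquitin ligase gene (15.3 to 23.5 CPM, adjusted p = 0.0367). Both genes also passed as higher in SKO livers, with means of 13.6 and 26.5 CPM.

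Among receptors for other hormones and growth factors past the threshold, lower genes outnumbered higher ones, with 1 of 27 tested genes higher and 10 lower in SKO than in WT livers, and 2 higher and 7 lower in DKO livers. These are 40.7% and 33.3% of the list, against 32.1% and 10.5% of all genes. With DKO replicate 4 left out, 2 were higher and 13 lower, 55.6% against 35.9% of all genes. The exception in SKO livers was Lepr, the leptin receptor gene, which rose from 7.28 ± 2.56 CPM (SD, n = 4) in WT to 191 ± 69.96 in SKO (log2 fold change 4.71, adjusted p = 5.2e-06) and 60.3 ± 30.4 in DKO livers (3.05, adjusted p = 0.00555). Ghr, the growth hormone receptor gene, fell from 400.1 ± 20.8 to 161 ± 35.9 CPM in SKO livers (−1.32, adjusted p = 1.0e-04), and it had 152 to 160 CPM in DKO replicates 1 to 3 but 434 in replicate 4. Klb, the FGF21 co-receptor gene, fell from 47.0 to 20.5 CPM (adjusted p = 4.7e-04) and Esr1, the oestrogen receptor gene, from 22.3 to 8.59 CPM (adjusted p = 5.4e-04). In DKO livers Met, the HGF receptor gene (108 to 61.3 CPM, adjusted p = 0.0133), Fgfr4 (51.1 to 30.6 CPM, adjusted p = 0.0141) and Il6ra (143 to 42.7 CPM, adjusted p = 0.0255) fell against WT. Each of them also passed the threshold as lower in SKO livers, with means of 64.8, 28.4 and 47.1 CPM. The list median was −0.53 in SKO and −0.25 in DKO livers on the log2 scale, against 0.031 and 0.030 for all genes.

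Of the transcriptional targets of glucagon, FOXO1 and insulin, 4 of 27 tested genes were higher and 13 lower in SKO than in WT livers, which is 63% of the list against 32.1% of all genes. In DKO livers 4 were higher and 3 lower than in WT, 25.9% against 10.5% of all genes, and 4 higher and 13 lower without DKO replicate 4, 63% against 35.9%. Pdk4, which restrains pyruvate oxidation, rose from 7.95 ± 3.11 CPM (SD, n = 4) in WT to 740.4 ± 176 in SKO (log2 fold change 6.54, adjusted p = 2.9e-07) and 668 ± 414 in DKO livers (6.40, adjusted p = 0.00532), with 69.8 CPM in DKO replicate 4. The glycogen-targeting subunits of protein phosphatase 1 went in opposite directions. Ppp1r3g rose from 2.02 to 79.5 and 56.6 CPM in SKO and DKO livers (adjusted p = 1.4e-04 and 0.00148). Ppp1r3c fell from 61.6 to 1.58 and 7.34 CPM (log2 fold change −5.31 and −3.04, adjusted p = 2.3e-05 and 0.0121), and Ppp1r3b fell from 194 to 15.4 CPM in SKO livers (−3.66, adjusted p = 2.5e-05). Slc2a2, the hepatic glucose transporter gene, fell from 437 to 124 CPM in SKO livers (−1.82, adjusted p = 1.6e-05) and had 359 CPM in DKO replicate 4. Cited2, a coactivator gene, was lower in DKO than in WT livers (19.0 to 7.36 CPM, adjusted p = 0.0173). It also passed as lower in SKO livers, with a mean of 7.01 CPM.

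**Figure D4:**
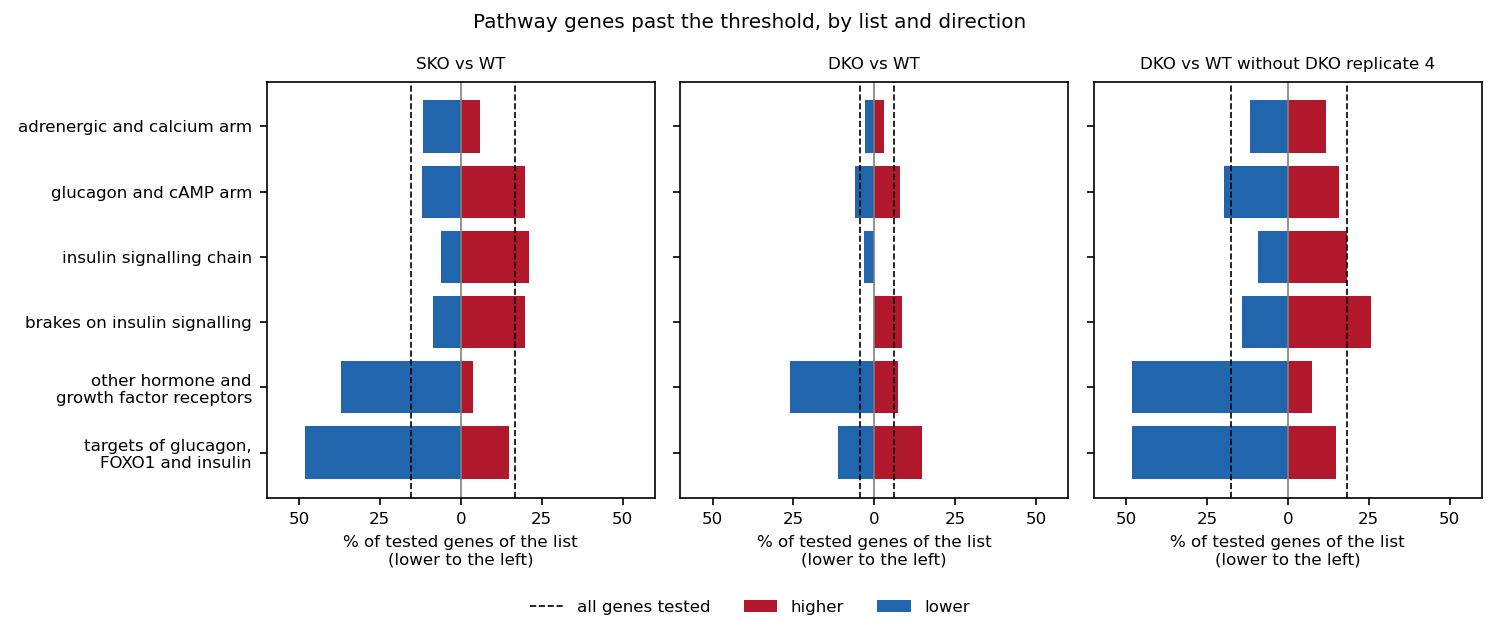
Share of the tested genes of each pathway list that were higher (red, to the right) or lower (blue, to the left) at an adjusted p-value under 0.05 in edgeR, with dashed lines for all genes tested. In SKO against WT livers the lower genes outnumber the higher ones for other receptors (10 against 1) and for transcriptional targets (13 against 4), and in DKO against WT livers the lower receptors number 7 with and 13 without DKO replicate 4.

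Against WT, DKO livers had 29 of 207 list genes past the threshold, 14 higher and 15 lower, or 14% against 10.5% of all genes. The count was 81 (33 higher and 48 lower) without DKO replicate 4, or 39.1% against 35.9% of all genes, and 6 to 19 without any other single liver, the lowest without WT replicate 2. Of 22 genes chosen for naming that passed between DKO and WT livers, Adcy9, Lepr, Met, Pdk4 and Ppp1r3g passed whichever single liver was left out. With a liver left out, 9 genes (Adcy1, Camk2d, Gna14, Gnai1, Il6ra, Klb, Pik3r1, Prkaca and Ptpn2) passed only when that liver was DKO replicate 4, and their highest adjusted p-values in edgeR without another liver were 0.0778 (Il6ra) to 0.116 (Camk2d). Cblb, Crebbp and Prkar2a did not pass in 6 of the 8 fits with a liver left out (up to 0.112, 0.102 and 0.1). Cited2 did not pass in 5 of these fits, Pde4d in 4, and Ide without WT replicate 1, 2 or 4 (up to 0.0596). Fgfr4 did not pass without WT replicate 2 (0.0533) and Ppp1r3c without DKO replicate 3 (0.0515). Between SKO and WT livers 30 of 32 such genes passed in every one of these fits, the exceptions being Adcy9 and Ptpn2. Most of the named genes were chosen for small p-values in these same livers, so passing again was largely set by that choice. Between DKO and SKO livers 0 of 207 list genes passed by edgeR, where 0.0209% of all genes did. In edgeR 13 had an unadjusted p-value under 0.05 (8 higher, 5 lower), and DESeq2 called 2, Lepr and Ppp1r3c. For the unadjusted and DESeq2 counts the share of all genes was not computed. The log2 difference was −1.65 ± 0.388 (standard error) for Lepr and 2.27 ± 0.583 for Ppp1r3c, and edgeR's adjusted p-values were 0.396 and 0.432. Without DKO replicate 4 edgeR called 1 gene, 0.483% of the list against 0.103% of all genes. It was Adcy1, which had 6.13 to 6.61 CPM in DKO replicates 1 to 3 and 0.692 in replicate 4, against 2.13 to 2.66 in SKO livers.

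The genes whose profiles over the 12 livers were closest to each member were ranked by the root-mean-square difference of centred log2 CPM among 13904 genes tested in all comparisons, as a description of likeness. Nearest to Adra1b were Hao1, a peroxisomal glycolate oxidase gene (difference 0.219), BC024386 (0.289) and Slc22a30 (0.298), where Adra1b itself deviated from its mean by 1.71. Hao1 had 149 CPM in WT livers, 12.9 in SKO livers and 49.9 in DKO livers on average, the last made up of 141 CPM in DKO replicate 4 and a mean of 19.5 in the other DKO livers. Nearest to Adra2a were Pdk4 (0.980), Gm47528 (1.25) and Ppp1r3g (1.31), where Adra2a itself deviated by 3.21. Insr was nearest to Lpp (0.0902), 2610507B11Rik (0.102) and Crebl2 (0.116), and Irs1 to Cgnl1 (0.248), Dapk1 (0.259) and an unnamed transcript (0.266). Gcgr was nearest to Lsm10, Nr2f6 and Chmp7 (0.110 each). Adra1a was nearest to Tut4 (0.180) and Irs2 to Lama5 (0.255). Among the members themselves the closest pairs were Adra1a with Irs2 (0.348) and Insr with Irs1 (0.363). All these profiles share the same libraries, and the deviation of DKO replicate 4 enters each of them.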

How the data were processed

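Bulk RNA-seq of liver was analysed for 12 mice fasted for 24 h, 4 per genotype, grouped by the genotype in the labels. The deposited values are read counts for each Ensembl gene, not normalized, and the authors also deposited FPKM values, which scale the counts by gene length and library size. The deposited labels name HISAT2 and the builds GRCm38 and mm10, while the counting program and the annotation are not given in the sources used here. Of 52073 genes found by ID in GENCODE M21 (GRCm38), 1472 have the same start and end as in the deposited table, and 0 of the 7 members do. Tables of the authors' comparisons hold their fold changes, p-values and adjusted p-values and were not used.

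Each pair of genotypes was compared on the counts of its 8 livers with edgeR 4.0.16 in R 4.3.3 (TMM normalization, filterByExpr, quasi-likelihood test, two-sided, Benjamini-Hochberg adjustment over all genes tested, threshold 0.05). CPM were scaled by TMM factors over the 12 livers, and differences are on the log2 scale. FPKM were used to compare levels between genes. The pipeline was tested on simulated data. Libraries within a genotype all differed (smallest chi-square per degree of freedom 18.5). DKO replicate 4 differed most from its group, with values of 194 to 231 against the other DKO livers. Those differed from each other by 27.7 to 33.3. The members, the 6 pathway lists, the cell markers and the alternatives were chosen with earlier results of these data known. Within each list the text names, per comparison, up to 4 genes of smallest p-value among those past the threshold with no overlap between groups, and those that DESeq2 or a fit without 1 liver called between DKO and SKO livers. Other adrenergic receptors are named beside the members, 1 gene is not reported here and was kept out of their summed level, and the 3 nearest genes were listed for each member. Intervals of the Adra2a ratio are exact and cover counting error. Alternatives were DESeq2 1.42.0, RLE and upper-quartile factors, no filter, a filter of 50 counts in 4 livers, 1 fit over 12 livers, the replicate number as a block, leaving out each liver, and leaving out both livers with Xist reads. For levels between genes the alternative was counts per kilobase on the TMM scale. Promoter sequences are from RefSeq (GRCm38.p6).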

Additional observations from a re-analysis of the deposited data

Results flagged for a closer look

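Of 21 groups of 4 livers (7 genes in 3 genotypes), 4 had a liver whose gap to the nearest of the others exceeded Dixon's 95% critical value for 4 samples, as a share of the group's range, where chance gives about 1 in 20, or 1.05 of 21. Of the 4, that of Adra2a in WT livers was fixed by its zeros and is not to be read against that number. Adra1b of DKO replicate 4 had 49.7 CPM, against a range in the remaining DKO livers of 4.44 to 4.84 CPM, a gap of 0.991 of the range. Adra2a of DKO replicate 2 had 47.1 CPM, where the others had 4.90 to 10.0 CPM (0.878 of the range). Irs2 of DKO replicate 1 had 66.4 CPM, where the others had 40.8 to 41.1 CPM (0.990 of the range). Adra2a of WT replicate 2 had 0.127 CPM, from 2 reads, where the other WT livers had 0, so that any read in that liver makes the gap the whole range. The 4 values come from 4 different livers, DKO replicates 1, 2 and 4 and WT replicate 2.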

How the results depend on the processing

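The count of pathway genes past the threshold between SKO and WT livers was 69 and stayed within 1.5 times of it under all alternatives (59 to 76 when each liver was left out in turn). Between DKO and WT livers it was 29, and it became 49 with DESeq2, 15 with the replicate block, 81 without both livers with Xist reads and 6 to 81 when each liver was left out in turn. Between DKO and SKO livers it was 0, and it was 2 with DESeq2, 1 without a filter and 0 to 1 when each liver was left out in turn, the 1 being without DKO replicate 4. The cause of these shifts was not tested. Of the log2 differences of the members, 329 values under an alternative moved by less than the spread between replicates. Another 7 moved by more. These concern Adra1b, which was −3.15 (DKO against WT) and 0.073 (DKO against SKO) without both livers with Xist reads and ranged from −3.15 to −1.04 and from 0.18 to 2.54 when each liver was left out, and Adra2a, whose fitted difference ranged from 8.36 to 11.14 (SKO against WT) and from 7.59 to 11.26 (DKO against WT), the highest without WT replicate 2, which holds all of its WT reads. No value past the threshold changed sign, and the 21 levels per length moved by less than 1 SD on the other per-length scale. Of the named pathway genes, values under an alternative fell below the threshold in 12 cases for SKO against WT and 109 for DKO against WT, and rose past it in 5, 45 and, for DKO against SKO, 4 cases. Livers with the same replicate number did not deviate together (correlations −0.0764 to 0.0718, −0.144 to 0.101 and −0.355 to 0.0626 in the 3 comparisons), and 1, 1 and 0 of 4 correlated best with their own number, so the number was taken as a name. With the replicate block Insr no longer passed the threshold between DKO and WT livers. Depth limits Adra2a in WT livers, Adra1d and Adra2c, which lie at or near the limit that a count of 0 allows.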
